A study of Mus musculus with 6 samples.

Results

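The 10 genes described here encode the chaperones that fold proteins inside mitochondria and the ATP-dependent proteases that remove damaged ones. They are the chaperonin genes Hspd1 and Hspe1, the HSP70 gene Hspa9 with its partner Dnaja3, the matrix proteases Lonp1, Clpp and Clpx, and the inner-membrane proteases Yme1l1, Afg3l2 and Spg7. They were chosen by symbol from a table of 46095 genes, with earlier results of these data known. All 10 were found and reached the mean of 1 FPKM that 11464 genes reached. FPKM is a fragment number scaled by transcript length and library depth, so levels of different genes can be set side by side. The samples were 3T3-L1 cells, mouse fibroblasts of an established line able to turn into fat cells, harvested as adipocytes at 8 days of differentiation. One group of 3 samples was untreated, and 3 further samples had been given 0.125 μg/mL flavonoids of Smilax glabra, a climbing plant used in herbal medicine. The labels do not say whether the samples of a group were separate cultures, so the p-values reflect only how far these samples varied, and that variation may be technical.

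Most mitochondrial proteins are made in the cytosol and threaded unfolded into the organelle. Mortalin, the product of Hspa9, pulls them into the matrix, and the barrel of HSP60 with its lid HSP10 (Hspd1 and Hspe1) then folds them. LONP1 and the pair of CLPX and CLPP degrade matrix proteins that fail to fold, while YME1L1 and the complexes of AFG3L2 and SPG7 do the same in the inner membrane. In mammalian cells, genes of this system are known to be induced when proteins misfold in mitochondria, a response tied to the transcription factors ATF4, ATF5 and CHOP.

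Library totals ran from 21952064 to 26355863 fragments, worked back from the steps between values. No library was a copy of another, with a chi-square per degree of freedom of 6.76 to 132 within groups. Among 10 adipocyte markers, Adipoq, Plin1, Cidec, Lep, Slc2a4 and Cd36 stayed under 1 FPKM in every library, so the adipocyte label is only partly borne by its defining markers. The summed level of the 10 ran from 385 to 415 FPKM in untreated and from 345 to 518 FPKM in treated libraries. Most of it was Fabp4 and Lpl, which moved in opposite directions. Mean Fabp4 went from 219 untreated to 170 FPKM treated and mean Lpl from 163 to 262 FPKM, neither called in the test described below. The 6 fibroblast markers, all of them tested, summed to between 2477 and 2954 FPKM untreated and between 1946 and 2220 FPKM treated, and the part of that shift in the results below was not tested. Among them Lum (mean 10.8 untreated and 2.49 FPKM treated, limma adjusted p = 0.0018) and Thy1 (215 and 137 FPKM, 0.0118) were called lower. The other fibroblast markers also had lower treated means and were not called. Of 4 macrophage markers Ptprc was listed at 0 throughout, and the 4 summed to between 1.86 and 3.49 FPKM over all libraries. In bulk RNA, fewer cells of a type and less RNA per cell cannot be told apart. Untreated replicates 1 and 3 differed in a way that followed gene length: over 3675 genes of at least 4000 bases the median deviation from the mean of the 6 libraries was -0.16 in replicate 1 and 0.27 in replicate 3 (log2), and over 1471 genes under 1000 bases it was 0.26 and -0.34.

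Lonp1, Hspa9, Dnaja3 and Hspe1 rose with flavonoids, by log2 changes of 0.90, 0.79, 0.75 and 0.71. Thus 4 of 10 members were called higher (limma's test of log2(FPKM + 1), with p adjusted by Benjamini-Hochberg over all 11464 genes and a threshold of 0.05), where 9.99% of all tested genes were called and 4.86% called higher. No member was called lower, against 5.13% of all tested genes. At an unadjusted p under 0.05, 7 members were higher and 2 lower, and limma's voom on the fragments called 4 higher and 0 lower. The median change of the members was 0.54, against -0.02 over all tested genes. Because the members were chosen with earlier results of these data known, these comparisons with all tested genes are a description only. In 9 of 10 members the 3 treated values lay wholly on one side of the untreated values, as they did in 34.3% of all tested genes. Without untreated replicate 2 only Lonp1 was called, and without flavonoids replicate 1 or 2 only Lonp1 and Dnaja3. With each library's trend over gene length removed, 7 members were called higher and Yme1l1 lower.

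**Figure D1:**
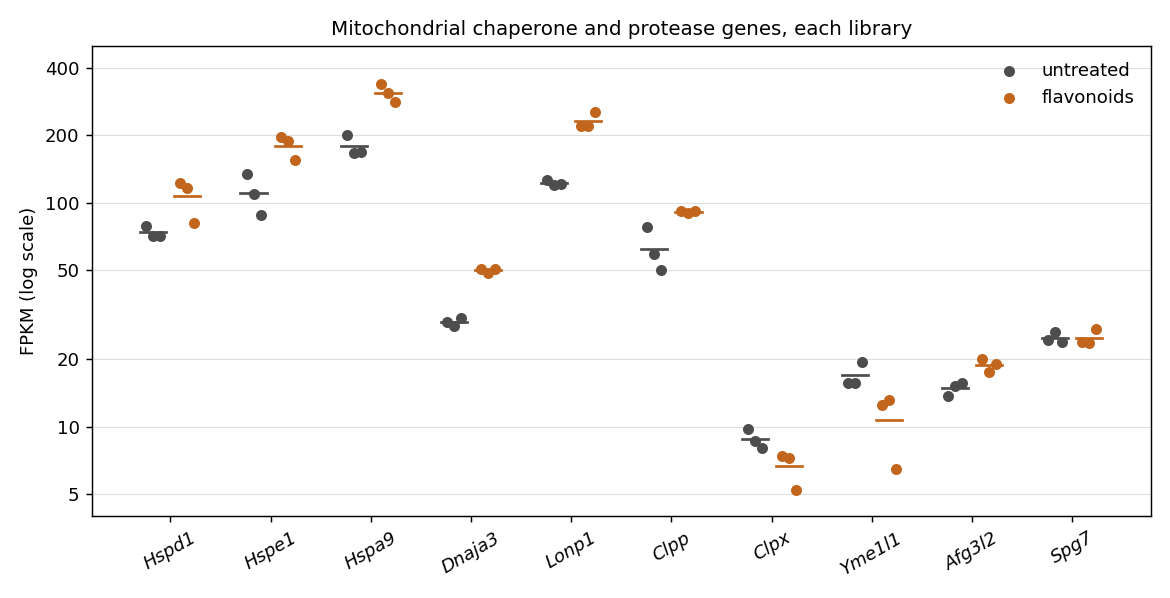
FPKM (log axis) of each member gene in each library, with 3 untreated points in grey, 3 flavonoid-treated points in orange and a bar at each group mean. Lonp1, Hspa9 and Dnaja3 stand clear of their untreated values, Spg7 overlaps, and Clpx and Yme1l1 lie lower in treated libraries.

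The chaperonin genes lie head to head on chromosome 1 (GENCODE M21 on GRCm38). Hspd1, at 55077835 to 55088243 on the minus strand, encodes the HSP60 barrel, and Hspe1, at 55088132 to 55091307 on the plus strand, its HSP10 lid. RefSeq places 1 start of Hspd1 216 bases and another 95 bases from the start of Hspe1. The stretch shown lies upstream of the Hspe1 start and of the first of these Hspd1 starts. It is downstream of the other Hspd1 start, inside an annotated Hspd1 exon. The promoter window of that other start holds none of the motifs searched. The stretch is shown because heat shock units cluster in it. It lies at chr1:55088053-55088082 (GRCm38.p6, plus strand), from 95 to 66 bases before the Hspe1 start, and capitals mark overlapping matches to TTCNNGAA and GAANNTTC, pairs of the units that heat shock factors bind:
Hspe1 and Hspd1: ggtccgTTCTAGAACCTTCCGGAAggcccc
Searched on both strands of the 300 bases from 250 before to 50 after each start, GAANNTTC occurs in 7.86% and TTCNNGAA in 8.52% of 32851 RefSeq promoter windows, and both together in 1.32%. A match describes the letters and does not show that the site is bound.

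Hspe1 measured 134, 109 and 88.5 FPKM in untreated replicates 1, 2 and 3 and 196, 188 and 154 FPKM in flavonoids replicates 1, 2 and 3. The groups did not overlap, and Hspe1 rose 1.62-fold in mean FPKM, from 111 ± 22.9 to 179.7 ± 22.3 (SD, n = 3 each). The fitted log2 change was 0.71 with an SE of 0.17, at an adjusted p of 0.0362 in limma. That call was lost without untreated replicate 2 (adjusted p = 0.145) or without flavonoids replicate 1, 2 or 3 (0.145, 0.121 and 0.0644), and with low genes left in (0.106). Its adjusted p ran from 0.000753 to 0.145 across the settings. Hspd1 measured 78.5, 71.2 and 71.3 FPKM untreated and 122, 117 and 81.5 FPKM treated. Flavonoids replicate 3 was close to the untreated libraries, and the other treated libraries were well above them. The change of Hspd1 was not called (log2 change 0.51, SE 0.16, 95% interval 0.14 to 0.88, limma adjusted p = 0.0844). It was called without flavonoids replicate 3 (log2 change 0.69, adjusted p = 0.0306). It was also called with the length trend removed, alone (0.52, adjusted p = 0.0173) or with the replicate number as a block (0.0284). Across the settings its adjusted p ran from 0.0173 to 0.270.

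The ratio of Hspd1 to Hspe1 within a library was 0.585, 0.652 and 0.806 untreated and 0.623, 0.620 and 0.528 treated. The groups overlapped, and the barrel and lid transcripts showed no difference in ratio larger than the spread between libraries (mean difference -0.20 on the log2 scale, exact two-sided permutation p = 0.4). The implied transcript lengths were 2423 bases for Hspd1 and 773 for Hspe1, and the part of the length trend in this ratio was not tested. Both genes have near-identical copies that may share reads. Among the copies of Hspd1, Hspd1-ps3 measured between 10.2 and 14.9 FPKM, and the others stayed under 0.5 FPKM. The exons of Hspd1 and Hspe1 also share 112 bases on opposite strands, and whether strand was used in counting is not given in the sources used here.

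Lonp1 encodes a ring-shaped matrix protease that also binds mitochondrial DNA. The 99 bases before its start and the start itself are shown because it had the largest change of the 10. Capitals mark TGACGTAA, a match to TGACGTNA, the core of the cAMP response element that ATF and CREB factors bind. That motif was searched only after the windows had been seen, and 2.93% of all windows hold it. The window is chr17:56626903-56627002, minus strand (GRCm38.p6):
Lonp1: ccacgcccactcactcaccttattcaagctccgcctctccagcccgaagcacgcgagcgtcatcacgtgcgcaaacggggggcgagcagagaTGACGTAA
The core of the C/EBP-ATF response element, TGATGNAA, is in 3.97% of all windows and in none of the 9 windows of the 8 members that the table holds.

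The 3 untreated values of Lonp1 were 126, 119.6 and 122 FPKM, and the 3 treated values 219.8, 218.7 and 253 FPKM. Every treated library was well above every untreated one. Lonp1 (chromosome 17, 56614297 to 56626887) rose 1.88-fold, from 122 ± 3.49 to 230.4 ± 19.3 FPKM (SD, n = 3 each). The fitted log2 change was 0.90 with an SE of 0.12, at an adjusted p of 0.0044 in limma. It ranked 85 of 11464 genes by p and was called in all 18 other settings, with log2 changes of 0.83 to 0.94.

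CLPP is the other matrix protease, a peptidase chamber that is fed by the unfolding ring CLPX. Their promoter windows are shown because their fitted changes had opposite signs. The Clpp stretch, chr17:56990284-56990313 (plus strand, bases 21 to 50 counted from the start), holds a TTCNNGAA match in capitals. The Clpx stretch, chr9:65294160-65294259 (plus strand, the 100 bases before the start), holds none of the motifs searched:
Clpp: ccgggtgttgtagTTCCGGAAgccaagccg
Clpx: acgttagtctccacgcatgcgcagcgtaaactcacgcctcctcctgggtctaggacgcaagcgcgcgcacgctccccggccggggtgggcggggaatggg

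Clpp (chromosome 17, 56990305 to 56996188) measured 78.1, 58.8 and 50.2 FPKM untreated and 92.0, 89.8 and 91.5 FPKM treated. The treated libraries were tightly grouped above all untreated ones, which varied widely (62.4 ± 14.3 against 91.1 ± 1.15 FPKM, SD, n = 3 per group). The change was not called (log2 change 0.56, SE 0.16, 95% interval 0.20 to 0.93, limma adjusted p = 0.0594). The untreated order, with replicate 1 high and replicate 3 low, was also that of short genes in general. With the length trend removed Clpp was called at much the same change (0.54, adjusted p = 0.00268), also with the replicate number as a block (0.00975). It was called as well without untreated replicate 1 (0.74, adjusted p = 0.00776) and under median-ratio scaling (0.0482), TPM (0.026) and quantile normalization (0.0204). Across the settings its adjusted p ran from 0.00268 to 0.220.

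Clpx (chromosome 9, 65294260 to 65330658) was the least abundant member, at 9.82, 8.64 and 8.10 FPKM untreated and 7.44, 7.30 and 5.26 FPKM treated. All treated values were below the untreated ones, flavonoids replicate 3 the most, but the change was not called (log2 change -0.37, SE 0.15, 95% interval -0.72 to -0.02, limma adjusted p = 0.165) in any setting (lowest adjusted p = 0.0925). Within a library the ratio of Clpx to Clpp was 0.126, 0.147 and 0.161 untreated and 0.0809, 0.0813 and 0.0575 treated. The ratio was thus lower in every treated library, by 0.99 on the log2 scale (-2.80 ± 0.18 against -3.79 ± 0.29, SD, n = 3 per group). The exact two-sided permutation p was 0.1, the smallest that 3 against 3 can give. Over the 3 partner pairs compared, no adjustment could bring such a p lower. The untreated ratio rose from replicate 1 to replicate 3. The implied transcript lengths were 2972 bases for Clpx and 1215 for Clpp, and the part of the length trend in this ratio was not tested.

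**Figure D2:**
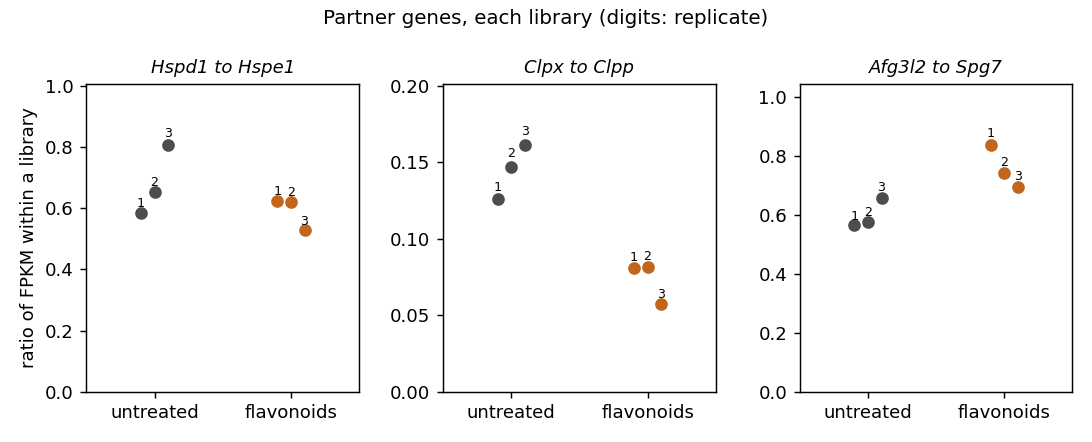
Ratio of FPKM of partner genes within each library (linear axes from 0, 1 panel per pair), with untreated libraries in grey, treated in orange and the replicate number beside each point. Clpx to Clpp is lower and Afg3l2 to Spg7 higher in all treated libraries, while Hspd1 to Hspe1 overlaps.

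Mortalin, encoded by Hspa9, is the HSP70 of mitochondria and the motor of protein import. Hspa9 (chromosome 18, 34937414 to 34954357, minus strand) was the most abundant member, with 200.2, 167 and 168 FPKM untreated and 339, 309.8 and 281 FPKM treated. The groups were far apart, and Hspa9 rose 1.74-fold, from 178 ± 18.8 to 309.8 ± 28.9 FPKM (SD, n = 3 each). The fitted log2 change was 0.79 with an SE of 0.13, at an adjusted p of 0.0105 in limma. The call was lost without untreated replicate 2 (adjusted p = 0.0848), flavonoids replicate 1 (0.0662) or flavonoids replicate 2 (0.0542), at log2 changes of 0.73 to 0.79. Across the settings its adjusted p ran from 0.00043 to 0.0848.

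Dnaja3 encodes a DNAJ cochaperone that stimulates the ATPase of mortalin. It measured 29.3, 28.2 and 30.5 FPKM untreated and 50.5, 48.4 and 50.8 FPKM treated. Both groups were tight and did not overlap, and Dnaja3 (chromosome 16, 4639989 to 4707695) rose 1.70-fold, from 29.3 ± 1.14 to 49.9 ± 1.30 FPKM (SD, n = 3 each). The fitted log2 change was 0.75 with an SE of 0.10, at an adjusted p of 0.00552 in limma. Without untreated replicate 2 its adjusted p was 0.054. Across the settings its adjusted p ran from 0.000432 to 0.054. Its exons share 160 bases with Vasn on the same strand (96.3 to 118 FPKM) and 153 bases with Coro7 on the opposite strand (3.54 to 6.65 FPKM), so some fragments cannot be assigned with certainty.

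None of the 3 inner-membrane protease genes was called. Yme1l1 (chromosome 2, 23156369 to 23199260), whose product faces the space between the membranes, measured 15.7, 15.6 and 19.5 FPKM untreated and 12.5, 13.2 and 6.51 FPKM treated. Flavonoids replicate 3 was far below the other treated libraries, and all treated values were below the untreated ones. Its change was the most negative of the 10 but was not called (log2 change -0.66, SE 0.24, 95% interval -1.20 to -0.13, limma adjusted p = 0.111). Without flavonoids replicate 3 it was -0.37 (adjusted p = 0.173). Yme1l1 has an implied transcript length of 4638 bases, and genes of at least 4000 bases were in general high in untreated replicate 3 and low in flavonoids replicate 3 (median deviation -0.12). With the length trend removed Yme1l1 was called lower (-0.59, adjusted p = 0.0433). Across the settings its adjusted p ran from 0.0433 to 0.264.

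Afg3l2 and Spg7 encode subunits of the protease on the matrix side of the inner membrane. Afg3l2 (chromosome 18, 67404764 to 67449172, minus strand) measured 13.8, 15.3 and 15.7 FPKM untreated and 20.1, 17.5 and 19.1 FPKM treated. The groups did not overlap, and the change was not called (log2 change 0.32, SE 0.12, 95% interval 0.06 to 0.58, limma adjusted p = 0.115). It was called in 1 of 18 other settings, with the length trend removed (0.38, adjusted p = 0.0239). Across the settings its adjusted p ran from 0.0239 to 0.320. Spg7 (chromosome 8, 123062942 to 123097760) measured 24.4, 26.6 and 23.8 FPKM untreated and 24.0, 23.6 and 27.4 FPKM treated. It was the member whose groups overlapped (log2 change 0.00, 95% interval -0.26 to 0.26, adjusted p = 0.987), and its sign turned between scalings. The ratio of Afg3l2 to Spg7 was 0.564, 0.576 and 0.657 untreated and 0.835, 0.740 and 0.695 treated. It was higher in every treated library, by 0.34 on the log2 scale (exact two-sided permutation p = 0.1, the smallest possible). The implied transcript lengths were 4154 bases for Afg3l2 and 2575 for Spg7, and the part of the length trend in this ratio was not tested.

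**Figure D3:**
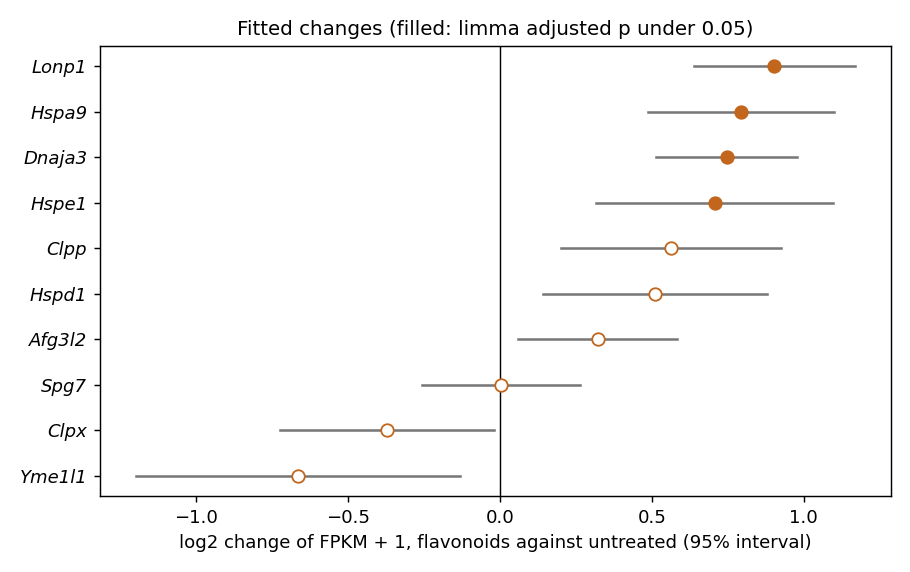
Fitted log2 change of FPKM + 1 for each member, with its 95% interval from limma, not adjusted for the number of genes. Filled points (Lonp1, Hspa9, Dnaja3 and Hspe1) passed the adjusted threshold, and the interval of Spg7 is centred near 0.

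In untreated cells the levels ran from 178 FPKM for Hspa9 through Lonp1, Hspe1, Hspd1, Clpp, Dnaja3, Spg7, Yme1l1 and Afg3l2 to 8.85 FPKM for Clpx. In that order, the values of Lonp1 and Hspe1 overlapped, as did those of Hspd1 and Clpp and those of Yme1l1 and Afg3l2. In treated cells Afg3l2 stood above Yme1l1 without overlap, and the rest of the order of means was as in untreated cells. The treated values of Hspd1 and Clpp overlapped, as did those of Yme1l1 and Clpx. The fewest fragments of a member in a library were 385 for Clpx, a counting error of 5.10%, and the most were 25800 for Hspa9.

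Likeness between genes was measured as the mean absolute difference of their centred log2(FPKM + 1) values over the 6 libraries. The closest members were Lonp1 and Dnaja3 (0.080), and the farthest were Lonp1 and Yme1l1 (0.784). Among 7335 other named genes averaging 5 FPKM or more, those closest to Lonp1 were Cnppd1 (0.033), the folliculin gene Flcn (0.050) and Alg1, a mannosyltransferase of protein glycosylation (0.051). Flcn measured 16.7, 17.3 and 16.9 FPKM untreated and 33.0, 33.9 and 36.6 FPKM treated. Closest to Hspd1 were Atp6ap2, an accessory subunit of the vacuolar proton pump (0.035), Tma16 (0.048) and Cr1l (0.053). With so many candidates and 6 libraries, close profiles are a description only.

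Of 12 further mitochondrial chaperones and cochaperones, 1 was called higher and 0 lower (4 and 0 at an unadjusted p under 0.05 in limma, 1 and 0 with voom, and 3 higher with the length trend removed), with a median log2 change of 0.13. With 4.86% of all tested genes called higher, lists of this size hold too few genes to set 1 call or none apart from that background. That gene was Clpb, a disaggregase of the space between the membranes, at 6.38, 6.14 and 6.70 FPKM untreated and 10.1, 8.85 and 10.3 FPKM treated (log2 change 0.53, adjusted p = 0.0285). The groups did not overlap, but the call was lost without untreated replicate 2 (0.159) or flavonoids replicate 1, 2 or 3 (0.131, 0.0758 and 0.072), with TPM (0.0795) and with low genes left in (0.0501). Trap1, the HSP90 of mitochondria, measured 43.3, 44.3 and 41.9 FPKM untreated and 50.2, 50.4 and 57.5 FPKM treated (adjusted p = 0.142).

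Of 16 other proteases and their scaffolds 15 were tested, and limma called none (2 higher and 0 lower at an unadjusted p under 0.05, and none with voom), with a median of 0.17. With the length trend removed 4 were called higher, among them Parl, Pitrm1 and Phb2, and without untreated replicate 1 Parl was (adjusted p = 0.0251). Oma1, a stress-activated protease, was too low to test, at most 0.713 FPKM. Parl, the rhomboid protease that cleaves PINK1, measured 39.1, 33.3 and 28.9 FPKM untreated and 43.8, 44.9 and 44.6 FPKM treated (log2 change 0.39, adjusted p = 0.0899). Pitrm1, which degrades presequences, had a log2 change of 0.34 (adjusted p = 0.0748), the prohibitin gene Phb2 0.31 (0.194) and Afg3l1, a close relative of Afg3l2, 0.23 (0.290).

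Of 9 listed regulators of mitochondrial stress 4 were called higher and 0 lower, where 4.86% of all tested genes were called higher. At an unadjusted p under 0.05 in limma 6 were higher and 0 lower, voom called 4 and 0, and the median was 0.60. Ddit3, which encodes CHOP, rose by 1.49, Atf5 by 0.83 and Cebpb by 0.61 on the log2 scale, and Atf4 by 0.68. Ddit3 measured between 20.1 and 27.2 FPKM untreated and 68.4, 67.8 and 63.1 FPKM treated, the groups lying far apart. Atf5 measured 309, 249 and 243 FPKM untreated and 453, 458 and 512 FPKM treated (adjusted p = 0.0108). Of these 4 calls only that of Ddit3 was kept without untreated replicate 2, flavonoids replicate 1 or flavonoids replicate 2 (adjusted p of Atf5 0.0877, 0.0574 and 0.052). The calls of Cebpb and Atf4 were also lost without flavonoids replicate 3 (0.071 and 0.114) and with low genes left in (0.0689 and 0.125). Hsf1, the heat shock factor gene, measured 28.2, 31.5 and 28.4 FPKM untreated and 35.4, 35.3 and 37.3 FPKM treated, a difference that was not called (adjusted p = 0.126). Also uncalled were Fgf21 (log2 change 0.60, limma adjusted p = 0.176), Gdf15 (0.09, 0.746), Dele1 (0.17, 0.340) and Ubl5 (-0.01, 0.984).

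Cytosolic heat shock chaperones gave no call among 11 tested of 14 (median 0.0088; 2 higher and 2 lower at an unadjusted p under 0.05 in limma, none with voom). With the length trend removed 2 were called higher, and with quantile normalization 1 was called lower. The inducible Hspa1a was listed at 0 in every library and Hspa1b reached at most 0.0153 FPKM. Hsp90ab1 and Hsp90aa1, cytosolic HSP90 genes, had log2 changes of 0.32 (adjusted p = 0.220) and -0.56 (0.158). A list of 13 genes of general mitochondrial content, among them enzymes of the citric acid cycle and channels of the outer membrane, gave no call either (median 0.15; 1 higher and 0 lower at an unadjusted p under 0.05 in limma, none with voom, and 1 higher with the length trend removed).

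Of 17 genes of the import machinery 1 was called higher and 0 lower (5 and 0 at an unadjusted p under 0.05, 1 and 0 with voom), with a median of 0.27. With the length trend removed 5 were higher, and without untreated replicate 1 there were 3. The called gene was Timm10, a small chaperone that carries membrane proteins between the mitochondrial membranes, at 22.4, 16.3 and 11.5 FPKM untreated and 40.7, 37.7 and 35.8 FPKM treated. The groups were far apart (log2 change 1.19, adjusted p = 0.0115), and the call was lost without untreated replicate 2 (0.0688) or flavonoids replicate 1 (0.0604) and with low genes left in (0.0578). Timm23, the channel of the inner membrane, measured 13.4, 14.8 and 10.4 FPKM untreated and 19.2, 18.9 and 15.9 FPKM treated (adjusted p = 0.0913).

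Of 9 tested substrates of these proteases, Alas1 was called higher and none lower (1 and 0 at an unadjusted p under 0.05, 1 and 0 with voom), with a median of -0.01. Alas1 encodes the first enzyme of heme synthesis, which CLPX is known to act on, and measured 9.52, 8.54 and 7.80 FPKM untreated and 11.9, 13.2 and 13.9 FPKM treated (log2 change 0.54, adjusted p = 0.0304). The groups did not overlap, but the call was lost without untreated replicate 2 (0.148) or flavonoids replicate 1, 2 or 3 (0.0877, 0.119 and 0.0825) and with low genes left in (0.0585). The lists were set beside the members by their counts and medians only, and no difference between lists was tested.

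**Figure D4:**
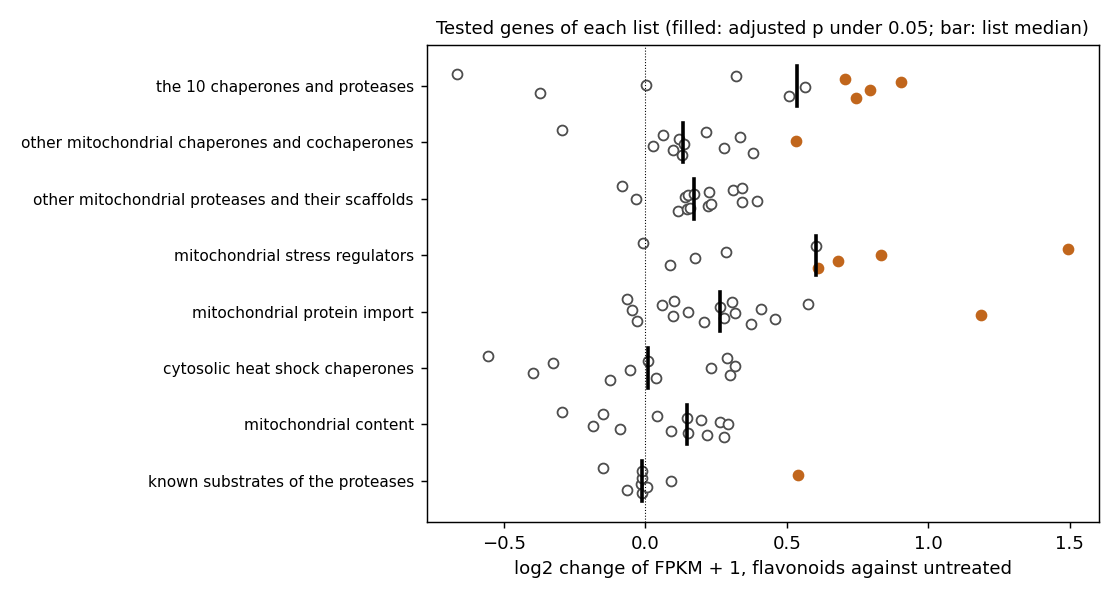
Fitted log2 change of FPKM + 1 for every tested gene of each list (1 point per gene), filled where the adjusted p was under 0.05, with a bar at the list median. The medians run from 0.54 for the 10 members and 0.60 for the stress regulators to 0.0088 for cytosolic chaperones and -0.01 for protease substrates.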

How the data were processed

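Total RNA from 6 samples was sequenced. The authors deposited 1 table of FPKM values, 1 column per sample and no column left unused here. The submitters' processing notes name FastQC, HISAT2 and the build mm10. Which tool and annotation gave the counts, and whether strand was used, is not given in the sources used here. Genes averaging 1 FPKM or more were tested with limma 3.58.1 (R 4.3.3) on log2(FPKM + 1), two-sided, with an intensity trend and Benjamini-Hochberg adjustment. This scale understates changes of low genes. Whole fragments, and from them transcript lengths, were worked back from the steps between values within 0.005 fragments, for all 22235 genes above 0. A gene whose fragment numbers share a divisor is understated by it. The members and the 7 other gene lists were chosen with earlier results of these data known. Named were all members, up to 3 called genes of smallest p per list and direction, and the 3 genes closest to Hspd1 and to Lonp1. Atf4, Fabp4, Lpl, Lum, Thy1 and every uncalled list gene that is named (such as Trap1, Parl, Hsf1 and Timm23) fall outside that rule. They were chosen after their values were seen. A list gene absent under its symbol was matched by its older symbol (2 genes). Promoter windows are from RefSeq (GRCm38.p6) and positions from GENCODE M21, on the assembly mm10 denotes. Scripts were tested on simulated data. Other settings were the replicate block, other pseudocounts, filters and scalings, removal of the length trend (loess, span 0.5), voom on fragments, and leaving out each library. Length trend and block together were chosen after seeing the data.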

Additional observations from a re-analysis of the deposited data

How the results depend on the processing

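Over 18 other settings for each of the 10 genes, 155 of 180 values kept their direction and side of the threshold, 11 newly passed it, 9 no longer did and 5 reversed, all of them for Spg7. Spg7 was -0.053 with TPM, -0.0079 with quantile normalization and -0.062 to 0.048 when 1 library was left out, and the copy Hspd1-ps3 was -0.14 to 0.11. Over all genes 557 were higher and 588 lower. These counts were 220 and 237 with the replicate number as a block, 317 and 324 without a filter, 1379 and 1131 with the length trend removed, and 1106 and 911 with that trend removed and the block. Leaving out 1 library gave 64 to 875 higher (lowest without untreated replicate 2) and 76 to 827 lower. Members called higher numbered 7, and lower 1, with the length trend removed, and 1 to 5 and 0 to 0 when a library was left out. The cause of these shifts was not tested. Same-numbered libraries did not deviate together (correlations of -0.14, -0.12 and -0.20), and no library correlated best with its own number. These correlations cannot settle whether the numbers pair the samples, because the deviations also followed gene length. The block left 4 members called higher. The block ended the calls of Clpb (adjusted p = 0.0713 in limma), Alas1 (0.0881), Atf4 (0.0748) and Cebpb (0.052). With the length trend removed, adding the block ended those of Yme1l1 (0.0635), Afg3l2 (0.0511) and Phb2 (0.0871), leaving 6 members higher and 0 lower. Partner ratios were recomputed only on log2(FPKM + 1), with medians and with each library left out. There they kept their direction: -0.07 to -0.30 for Hspd1 to Hspe1, -0.83 to -1.09 for Clpx to Clpp and 0.26 to 0.41 for Afg3l2 to Spg7. They were not recomputed with the length trend removed. At the lowest fragment number of a member the counting error was 5.10%.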
